A study of Mus musculus with 5 samples.

Results

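The M1 Macro/DC cells are a lung population that the authors of the cell annotation named jointly for M1 macrophages and dendritic cells. They were chosen here as the cells of the Monocyte-Derived class whose type is neither alveolar macrophages, nor M2 macrophages, nor monocytes. This rule left 1 cell type of the 4 in the class. It held 345 cells of the 23852 in 5 single-cell RNA-sequencing libraries. All libraries came from lungs of female BALB/c mice. The mice received control medium (CM) or tumor-secreted factors (TSF) intravenously, 3 times per week for 3 weeks, and then 25000 4T1 cells that expressed CD90.1. 4T1 is a mouse mammary carcinoma line, CD90.1 is a Thy1 variant used as a reporter, and TSF is medium in which pieces of 4T1 primary tumors had been kept. Lungs were taken at day 11 (metastatic seeding, mice 10 weeks old) or day 16 (metastatic colonization, mice 11 weeks old) after the cancer cells. The TSF group of day 11 had 2 libraries, a and b, and each of the other 3 groups had 1. Each library pooled the dissociated lungs of 3 mice, every group carried cancer cells, and lungs without cancer cells were not analysed here. Mice of day 16 were also older than those of day 11, so day, age and library cannot be told apart.

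Dendritic cells take up antigen in tissue, carry it to lymph nodes and present it on MHC class II molecules to T cells. The conventional kind comes in a type that expresses Xcr1 and cross-presents antigen to CD8 T cells, and in a type that in mouse tissue often carries Cd209a, a lectin gene, and mainly primes CD4 T cells. M1 is the name given to macrophages in a pro-inflammatory state, as opposed to M2 macrophages, which are linked to tissue repair and to support of tumor growth. Plasmacytoid dendritic cells (pDCs), the main source of type I interferon among dendritic cells, stand outside the class in this annotation as a type of their own.

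The name was not checked against marker levels, which were not analysed in these cells here. The gene table tells only which genes entered the clustering of all lung cells, and that is no check of the name. Of 4 genes taken here as markers for this part, 2 were among the 1000 highly variable genes on which the authors placed and clustered all cells. These were Cd209a (ENSMUSG00000031494) and H2-Ab1 (ENSMUSG00000073421), which encodes an MHC class II chain. Xcr1 (ENSMUSG00000060509) and Flt3 (ENSMUSG00000042817), the receptor for the growth factor of the dendritic lineage, were not among those 1000 of 23771 genes. Of textbook lists, 1 of 4 genes of conventional dendritic cells of the Xcr1 type (Irf8) was among them, 2 of 4 of the Cd209a type (Cd209a and Sirpa), and 3 of 3 of migratory dendritic cells (Ccr7, Fscn1 and Ccl22). For other cells, it was 3 of 3 plasmacytoid, 3 of 3 interstitial macrophage, 1 of 3 alveolar macrophage, 3 of 3 monocyte, 3 of 3 neutrophil and 0 of 2 proliferation genes, where cell cycle genes had been left out by the authors. Genes of other cell types were among them too, and the files used here do not divide M1 macrophages from dendritic cells within the joint type. The cells are called M1 Macro/DC throughout.

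The 5 libraries held between 3835 and 5580 cells and between 13240822 and 21451787 unique molecular identifiers (UMIs, the counted transcripts), with medians of 2236 to 2721 UMIs per cell. Cells that the authors marked as doublets or unknown, 1734 in all, were left out, and the other 22118 are called annotated cells. In their composition by class, libraries a and b agreed within sampling noise (chi-square 11.0, 11 degrees of freedom, p = 0.445), and their mean is used for that group. The sources used here do not say whether a and b came from the same or from separate pools of mice, so the main values are given for each library as well. Every other pair of libraries gave a chi-square of at least 50.4. Pairs of libraries shared between 14 and 46 cell barcodes, and no M1 Macro/DC cell shared its barcode with an M1 Macro/DC cell of another library, which counts as 0 in all 10 pairs. No test between groups was made, since 3 of the 4 groups had 1 library. The 95% intervals of shares and ratios given below are exact and cover the error of counting cells only. Those of medians cover only the spread over the cells of a library. Neither kind covers differences between mice or libraries.

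In every library M1 Macro/DC cells were a small part of the lung, and their share was lower at day 16 than at day 11 under either medium. They made up 1.87% of annotated cells in CM at day 11 (70 cells, interval 1.46 to 2.36%) and 1.21% in CM at day 16 (43 cells, 0.874 to 1.62%). In TSF they made up 1.84% in library a (94 cells, 1.49 to 2.25%) and 1.64% in library b (79 cells, 1.30 to 2.05%) at day 11. The TSF library of day 16 was at 1.21% (59 cells, 0.919 to 1.55%). The 3 libraries of day 11 were thus the 3 highest, and the CM and TSF libraries of day 16 had nearly the same share. A lower share in dissociated tissue can come from fewer such cells or from more of the others, and the shares alone do not separate these.

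**Figure D1:**
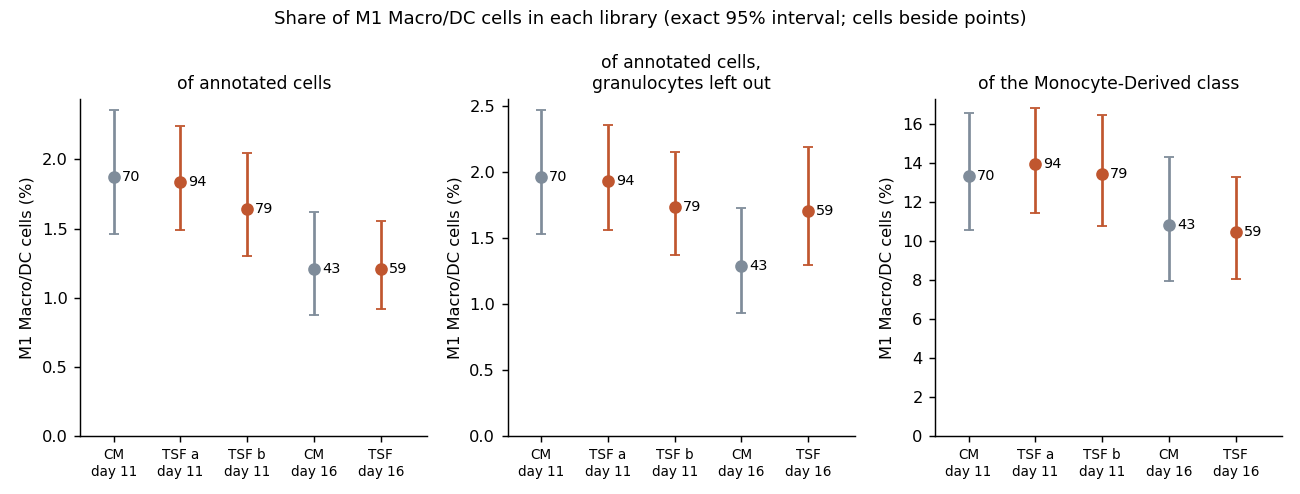
Share of M1 Macro/DC cells (percent, vertical axes from 0) in each of the 5 libraries, as a share of annotated cells, of annotated cells without granulocytes, and of the Monocyte-Derived class. Points are shares, bars are exact 95% intervals, grey is CM, red is TSF, and the number beside a point is its count of M1 Macro/DC cells. The TSF library of day 16 lies at 1.21% in the left panel and at 1.70% in the middle panel.

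The comparison of media asks whether lungs primed with TSF held more or fewer of these cells once metastases grew. At day 16 the share in TSF was 1.00 times that in CM (interval 0.663 to 1.52). At day 11 the mean share of TSF libraries a and b, 1.74%, was 0.930 times the CM share (0.702 to 1.25). Library a alone gave 0.982 (0.713 to 1.36) and library b alone 0.878 (0.628 to 1.23). No difference between media was thus detectable at this depth at either day. By counting error alone, the intervals leave room for changes of up to about these limits in each direction. They do not cover differences between mice or libraries, so they do not bound the change between media.

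The shares of many lung cell types differed between the media at day 16. Of the 21 annotated types, 10 (47.6%) differed by over 1.5-fold in one direction or the other at day 16, and 5 (23.8%) at day 11, and M1 Macro/DC cells were not among them at either day. Within their own class, the other types moved apart at day 16. Alveolar macrophages, the resident cells that clear surfactant from the air spaces, were at 0.635 times their CM share (0.516 to 0.781). M2 macrophages were at 1.67 times (1.25 to 2.26) and monocytes, their blood-borne precursors, at 1.51 times (1.16 to 1.98). The interval of M1 Macro/DC cells reached into the range of the M2 macrophage and monocyte intervals, and of the alveolar macrophage interval too. pDCs were at 1.27 times (0.666 to 2.52), an interval that takes in 1 like that of M1 Macro/DC cells.

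**Figure D2:**
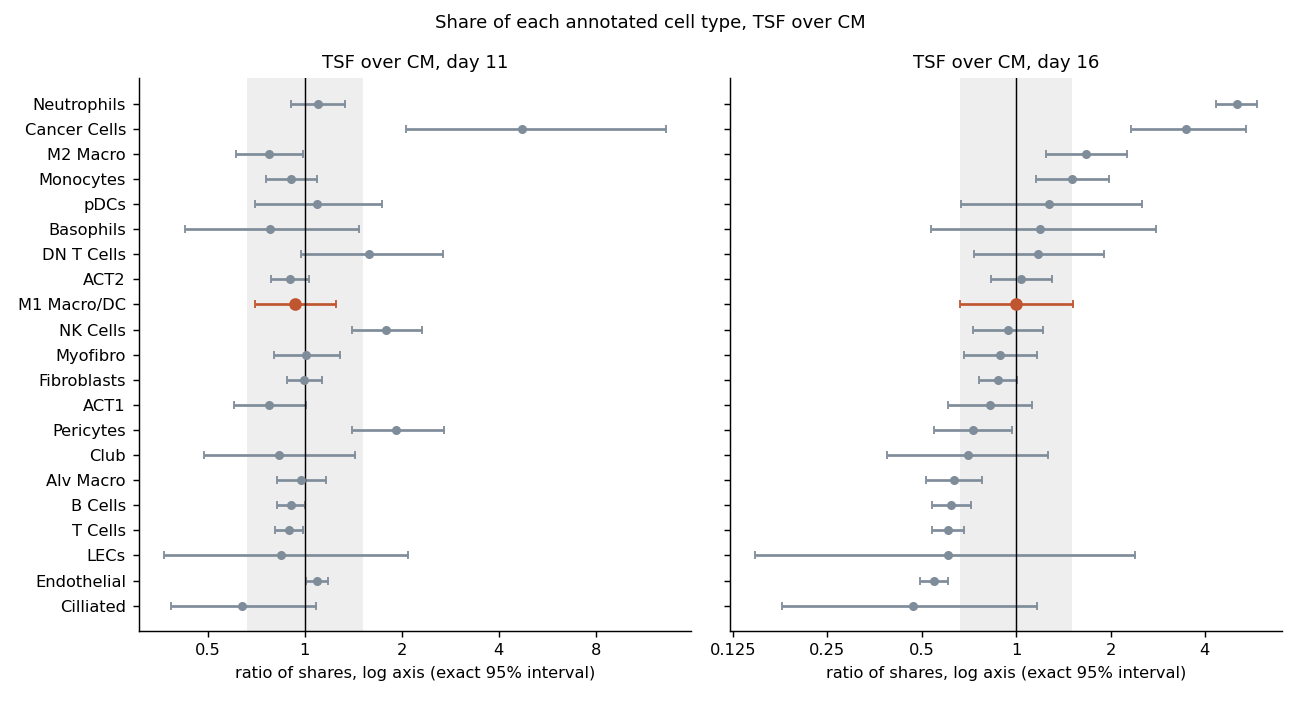
Ratio of the share of annotated cells in TSF to that in CM (log axis) for each of 21 cell types at day 11 and at day 16, with exact 95% intervals. Types are in the order of their day 16 ratio, the shaded band spans changes of less than 1.5-fold in either direction, and M1 Macro/DC cells, in red, sit at 0.930 and 1.00.

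The value at day 16 depended on which cells it was set against. Neutrophils, short-lived granulocytes that enter the lung from blood, made up 28.7% of annotated cells in TSF and 5.69% in CM at day 16. When granulocytes were left out of the total, M1 Macro/DC cells were at 1.70% in TSF (1.30 to 2.19%) and at 1.28% in CM (0.930 to 1.72%), a ratio of 1.33 (0.880 to 2.01). Against immune cells alone, of which neutrophils were 45.4% in TSF and 11.1% in CM, the ratio was 0.807 (0.536 to 1.23). The intervals of the M1 Macro/DC shares without granulocytes overlap. The ratio stood above 1 without granulocytes and below 1 among immune cells, with intervals that take in 1. Other types shifted with the total too. Without granulocytes, 6 of 19 types (31.6%) differed by over 1.5-fold at day 16, M1 Macro/DC cells not among them, and alveolar macrophages were at 0.842 times their CM share (0.684 to 1.04). M2 macrophages were at 2.22 times (1.66 to 2.99) and monocytes at 2.00 times (1.53 to 2.63). As a part of the Monocyte-Derived class, which neutrophils do not enter, M1 Macro/DC cells held 10.8% in CM (7.95 to 14.3%) and 10.4% in TSF (8.04 to 13.3%), a ratio of 0.964 (0.640 to 1.46). At day 11 the part was 13.4% in CM (10.6 to 16.6%), 14.0% in TSF library a (11.4 to 16.8%) and 13.4% in library b (10.8 to 16.5%). The mean of a and b, 13.7%, was 1.03 times the CM value (0.774 to 1.38). M1 Macro/DC cells thus held between 10.4 and 14.0% of their class in every library, with all intervals overlapping.

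The comparison of days asks how the population stood as metastases went from seeding to colonization. In CM the share at day 16 was 0.644 times that at day 11 (interval 0.430 to 0.954). In TSF it was 0.692 times that of day 11 (0.505 to 0.933). Both fell short of 1 by more than counting error. Against TSF library a alone the TSF ratio was 0.655 (0.465 to 0.917), and against library b alone it was 0.733 (0.514 to 1.04), an interval that takes in 1. Between the days, 8 of 21 types (38.1%) differed by over 1.5-fold in CM, M1 Macro/DC cells among them, and 7 of 21 (33.3%) in TSF, M1 Macro/DC cells not among them. A change of this size was therefore common among cell types. Of all M1 Macro/DC cells, 102 of 345 came from the libraries of day 16, which is 29.6% (24.8 to 34.7%), beside 38.3% of all annotated cells and 35.0% of the class.

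How much of the difference between days remained depended on the total as well. Without granulocytes the ratio was 0.654 in CM (0.437 to 0.970) and 0.930 in TSF (0.679 to 1.25). The TSF ratio thus came near 1 when neutrophils, which were at 28.7% of annotated cells at day 16 and at 4.40% at day 11, did not enter the total. Among immune cells alone the ratio was 0.653 in CM (0.436 to 0.968) and 0.545 in TSF (0.398 to 0.735). Within the Monocyte-Derived class the ratio was 0.811 in CM (0.541 to 1.20) and 0.762 in TSF (0.557 to 1.03). Every one of these ratios was below 1, but the interval took in 1 for both media within the class and for TSF without granulocytes.

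The neighbouring types changed between days in their own ways. In CM, monocytes stood at 0.509 times their day 11 share (0.387 to 0.664) and M2 macrophages at 0.685 times (0.497 to 0.939), so that M1 Macro/DC cells were 1 of 3 types of the class with an interval below 1. Alveolar macrophages were at 1.20 times (0.973 to 1.47). In TSF, M2 macrophages stood at 1.48 times their day 11 share (1.19 to 1.82), an interval that does not meet that of M1 Macro/DC cells. Monocytes were at 0.849 times (0.706 to 1.01) and alveolar macrophages at 0.778 times (0.650 to 0.928) in TSF. pDCs were at 0.599 times in CM (0.303 to 1.15) and at 0.701 times in TSF (0.439 to 1.09), values close to those of M1 Macro/DC cells but on 153 cells in all. M1 Macro/DC cells and M2 macrophages thus stood on the same side of 1 in CM and on opposite sides in TSF. These are ratios of shares of annotated cells, and in TSF they depended on the total. Without granulocytes, alveolar macrophages in TSF were at 1.05 times (0.874 to 1.25) and monocytes at 1.14 times (0.948 to 1.36). M2 macrophages were then at 1.99 times, with an interval above 1. Among immune cells alone, M2 macrophages in TSF were at 1.16 times (0.939 to 1.44). Alveolar macrophages were then at 0.613 times (0.512 to 0.731) and monocytes at 0.668 times (0.555 to 0.798).

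For lung leukocytes, M1 Macro/DC cells had a high median count of UMIs, though M2 macrophages came near it at day 16. Their median was 6123 UMIs per cell over all libraries, with quartiles of 4781 and 7847 and a range from 822 to 19787. Monocytes had a median of 3881, M2 macrophages of 4525, alveolar macrophages of 3389 and pDCs of 3560. At day 16 the median of M2 macrophages was 5828 UMIs in CM (interval 4626 to 6440) and 6433 UMIs in TSF (5246 to 7344). Both intervals overlap those of M1 Macro/DC cells, 5963 to 8833 in CM and 5780 to 7768 in TSF. By library the M1 Macro/DC medians were 6244 UMIs (day 11) and 7402 UMIs (day 16) in CM, 5331 UMIs (a) and 6383 UMIs (b) in TSF at day 11, and 6751 UMIs in TSF at day 16. In 4 of 5 libraries only cancer cells and club cells, secretory cells of the airway, had a higher median among the 21 types. In the fifth, CM at day 16, ciliated airway cells did too. The position near the top was thus held in all 5 libraries, while the medians themselves moved with the library. In CM they were 1.19 times as high at day 16 as at day 11, and 19 of the 21 types, M1 Macro/DC cells among them, were higher at day 16. At day 16 the TSF median was 0.912 times the CM median, where the middle value over types was 0.869.

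By median number of detected genes, M1 Macro/DC cells ranked 4 or 5 from the highest of 21 types in every library. Their medians by library were 1738 genes (day 11) and 2218 genes (day 16) in CM, and 1578 genes (a) and 1716 genes (b) in TSF at day 11. In TSF at day 16 their median was 2015 genes, and that of M2 macrophages was higher, at 2104 genes. Among cells with 5000 to 6000 UMIs, the 65 M1 Macro/DC cells had a median of 1585 detected genes. At the same depth it was 1831 in 53 M2 macrophages, 1819 in 117 monocytes, 1992 in 95 alveolar macrophages and 2052 in 10 pDCs. M1 Macro/DC cells thus spread their UMIs over fewer genes than each of these types. By library the M1 Macro/DC medians in this range were 1570, 1887, 1587, 1515 and 1714 genes, in the order CM day 11, CM day 16, TSF a, TSF b and TSF day 16. Those of M2 macrophages in the same order were 1624, 1905, 1831, 1805 and 1873, and those of monocytes were 1805, 2026, 1781, 1735 and 1902. M1 Macro/DC cells had the lowest median in each of the 5 libraries among the types of the class, although the gap to M2 macrophages was small in the CM libraries, and CM at day 16 had only 5 M1 Macro/DC cells in the range. At 3000 to 4000 UMIs the median was 1268 genes in 20 M1 Macro/DC cells, against 1335 in M2 macrophages and 1395 in monocytes. At 8000 to 10000 UMIs it was 2233 in 44 cells, against 2689 and 2577. In medians over all libraries, M1 Macro/DC cells were below M2 macrophages, monocytes and alveolar macrophages in all 3 ranges of depth. These medians mix the libraries unequally. At 8000 to 10000 UMIs, 14 of 25 M2 macrophages came from TSF at day 16, against 6 of 44 M1 Macro/DC cells. In that library alone the medians were 2617 and 2312 genes. The types were themselves drawn from the genes of these cells, so this is a description and not a test.

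**Figure D3:**
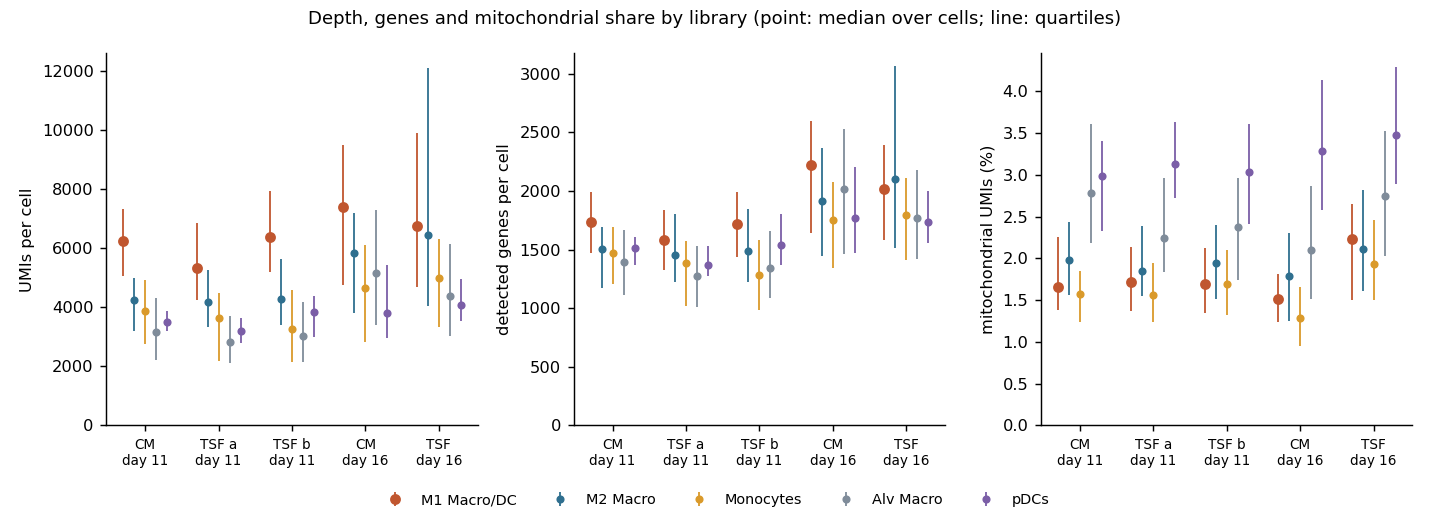
UMIs per cell, detected genes per cell and percent of UMIs from mitochondrial genes in each library, for M1 Macro/DC cells and 4 other types, with points at the median over cells and lines from the lower to the upper quartile. M1 Macro/DC cells, in red, have the highest median UMIs of the 5 types in every library, and their mitochondrial percent is at 2.23 in TSF at day 16.

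Mitochondrial transcripts made up a small part of the RNA of M1 Macro/DC cells, with a median of 1.71% over all libraries. For CM the medians were 1.66% at day 11 and 1.52% at day 16, and for TSF they were 1.72% (a) and 1.69% (b) at day 11 and 2.23% at day 16. The first 4 of these lay close together and the TSF library of day 16 stood above them. Its interval over cells, 1.79 to 2.53%, did not meet that of CM at day 16, 1.29 to 1.73%. The ratio between these libraries was 1.47, where the middle value over the 21 types was 1.18 and 19 of 21 types were higher in TSF. The rise was thus shared by most cell types of that library, with M1 Macro/DC cells at rank 4 by its size. Whether it belongs to TSF or to that library cannot be told apart.

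All M1 Macro/DC cells came from 2 of the 183 fine clusters that the authors had drawn in the plane of their UMAP, a map that places cells of like expression near each other. Fine cluster 46 held 202 of the 345 cells (58.6%) and fine cluster 75 held 143 (41.4%). Of the 209 cells in cluster 46, 96.7% were M1 Macro/DC, 4 were pDCs, and M2 macrophages, monocytes and a doublet type called ?D24 gave 1 cell each. Of the 161 cells in cluster 75, 88.8% were M1 Macro/DC, 17 cells (10.6%) were of doublet type ?D24, and 1 was an M2 macrophage. The clusters had similar medians, at 5954 and 6523 UMIs, 1717 and 1773 genes, and 1.73 and 1.67% mitochondrial UMIs. The genes that part them were not analysed here, and neither is given a cell type name of its own.

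**Figure D4:**
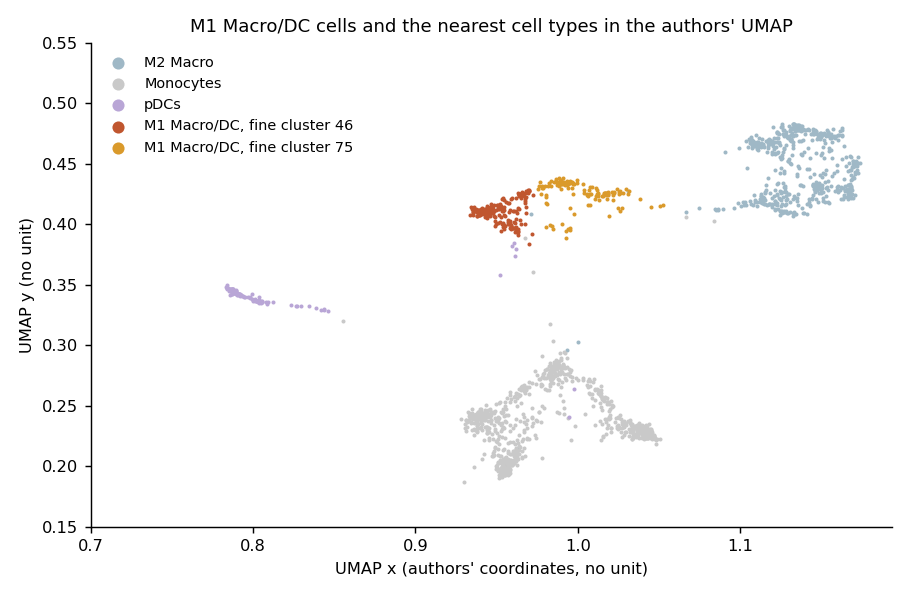
The authors' UMAP coordinates (no unit) around the M1 Macro/DC cells of fine cluster 46 (red) and fine cluster 75 (orange), with M2 macrophages, monocytes and pDCs, and 1 point per cell of the 5 libraries. Alveolar macrophages lie outside the window. Cluster 75 faces the M2 macrophages and the pDCs lie on the side of cluster 46.

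On that map M1 Macro/DC cells lay mostly among themselves, as did the other types of the class. Of the 15 nearest neighbours of an M1 Macro/DC cell, 99.0% on average were of the same type, and for 309 of 345 cells (89.6%) all were. The average was 98.5% in M2 macrophages, 97.8% in monocytes and above 99% in alveolar macrophages, where all neighbours were of the same type for 95.2, 87.2 and 99.5% of cells. The most frequent other neighbour was the M2 macrophage, at 0.541% of neighbours, followed by doublet type ?D24 at 0.174%. The type's centre lay 0.174 units from that of M2 macrophages, 0.181 from monocytes and 0.189 from pDCs, with endothelial cells next at 0.554. Alveolar macrophages, though of the same class, lay 1.06 units away. Since the authors drew the types from clusters in this plane, the distances describe the annotation and do not test it.

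The balance of the clusters differed most between libraries that carry the same label. Cluster 46 held 57.1% of M1 Macro/DC cells in CM at day 11 (interval 44.7 to 68.9%), 65.1% in CM at day 16 (49.1 to 79.0%) and 62.7% in TSF at day 16 (49.1 to 75.0%). In TSF at day 11 it held 68.1% in library a (57.7 to 77.3%) and 41.8% in library b (30.8 to 53.4%). Libraries a and b were thus the highest and the lowest of the 5, with intervals that do not meet and a gap of 26.3 percentage points. As a share of annotated cells, cluster 46 was 1.82 times as frequent in a as in b (1.18 to 2.86) and cluster 75 was 0.613 times (0.373 to 0.992). In the same comparison of a with b, 0 of 6 clusters of alveolar macrophages, 0 of 3 of M2 macrophages, 0 of 5 of monocytes and 0 of 2 of pDCs had intervals apart. Their largest gaps were 2.72, 9.94, 5.51 and 13.6 percentage points in that order. For pDCs this rests on only 43 cells in a and 38 in b. The M1 Macro/DC cells fall into 2 clusters that sum to the whole type, so theirs is a single contrast. Libraries that agreed in their classes as a whole therefore differed by more than counting error in how M1 Macro/DC cells fell into these clusters.

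Against that spread, neither cluster showed a difference between media. The ratio of TSF to CM at day 16 was 0.963 for cluster 46 (0.573 to 1.63) and 1.07 for cluster 75 (0.530 to 2.21), and at day 11 it was 0.906 and 0.962. Between days, cluster 46 stood at 0.734 in CM (0.436 to 1.22) and at 0.780 in TSF (0.514 to 1.14). Cluster 75 stood at 0.524 in CM (0.262 to 1.00) and at 0.582 in TSF (0.347 to 0.953). All 4 ratios between days were below 1, with an interval off 1 for cluster 75 in TSF. The TSF ratios turned on which library of day 11 they were set against. For cluster 46 the ratio was 0.604 (0.391 to 0.919) against library a alone and 1.10 (0.669 to 1.82) against library b alone. For cluster 75 it was 0.766 (0.421 to 1.37) against a and 0.469 (0.269 to 0.796) against b.

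Doublet type ?D24 lay almost wholly beside these cells, with 17 of its 18 cells in cluster 75. It had 4 cells in CM at day 11, 9 in TSF library a, 5 in library b and 0 in either library of day 16. Its median of 8443 UMIs and 2607 genes was above the 6123 UMIs and 1739 genes of M1 Macro/DC cells. With ?D24 counted among the M1 Macro/DC cells, the ratio of day 16 to day 11 was 0.610 in CM and 0.641 in TSF, so that the difference between days was somewhat wider.

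A second round of clustering by the authors split the M1 Macro/DC cells into 16 sub-clusters, 13 of them with at least 10 cells. Of these 13, the share of cells from day 16 had an interval off the type's 29.6% in 4 (30.8%). Sub-cluster C.17, the largest with 46 cells, had 10 and 3 cells from CM of day 11 and day 16, 24 and 8 from TSF a and b, and 1 from TSF of day 16, which is 8.70% from day 16 (2.42 to 20.8%). C.57 had 6 and 1 cells from CM, 5 and 11 from TSF a and b, and 0 from TSF at day 16, which is 4.35% (0.110 to 21.9%). Both sub-clusters are named here because of their low share from day 16, so low counts under both media are no separate support. The CM counts are small, out of 70 M1 Macro/DC cells at day 11 and 43 at day 16.

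The other 2 were high at day 16. C.91 had 1 and 10 cells from CM at day 11 and day 16, 3 and 1 from TSF a and b, and 4 from TSF at day 16, which is 73.7% (48.8 to 90.9%). C.78 had 2 and 4 cells from CM, 2 and 1 from TSF a and b, and 7 from TSF at day 16, which is 68.8% (41.3 to 89.0%). C.91 and C.78 are likewise named because of their share from day 16, so their high counts at that day are no separate support. C.78 also had a lower median depth than the type, 3938 UMIs, and a higher median mitochondrial percent, 2.54. A sub-cluster filled mostly from 1 library cannot be told apart from that library, as for the 10 of 19 cells of C.91 from CM at day 16 or the 24 of 46 cells of C.17 from TSF library a.

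**Figure D5:**
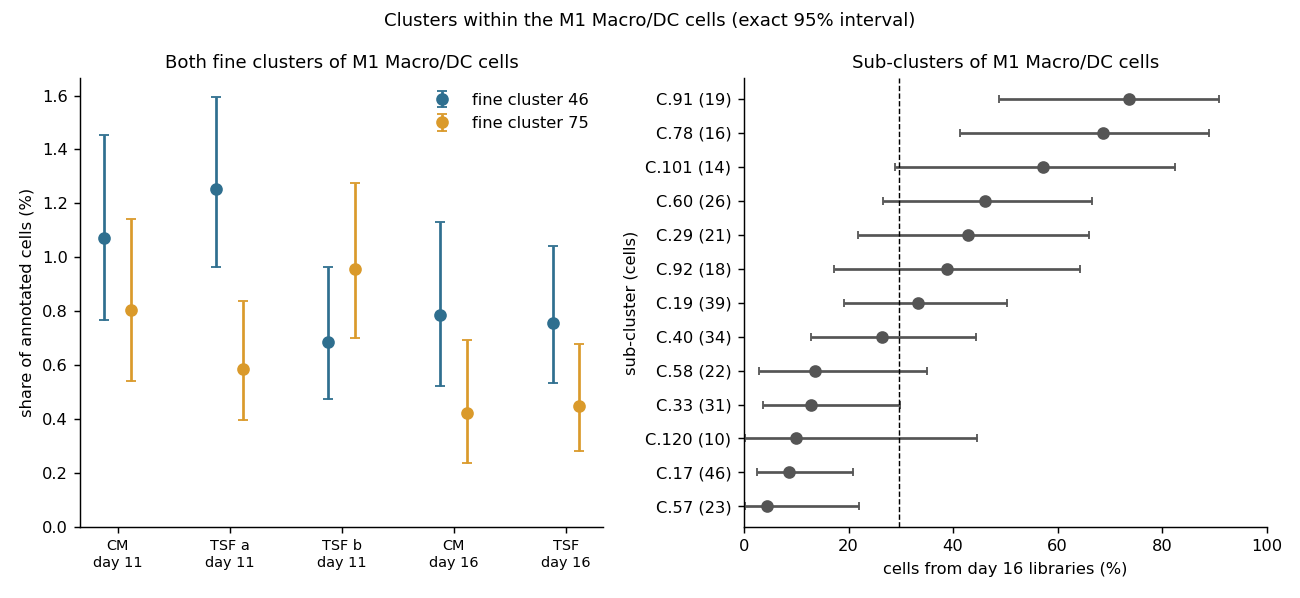
Left, share of annotated cells (percent) in fine clusters 46 and 75 in each library, and right, percent of cells from day 16 in the 13 sub-clusters with at least 10 cells (cells in brackets), all with exact 95% intervals. The clusters change places between TSF libraries a and b, and the dashed line marks the 29.6% of all M1 Macro/DC cells that came from day 16.

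The other types of the class were counted in the same way. The count was 26 of 35 sub-clusters (74.3%) in alveolar macrophages, 10 of 19 (52.6%) in M2 macrophages and 16 of 28 (57.1%) in monocytes, together 52 of 82 (63.4%). In pDCs it was 3 of 7 (42.9%). Sub-clusters were of similar size, with a median of 22 cells in M1 Macro/DC cells and 26, 25, 29 and 17 in the other types in that order. This is a description, since 3 of the 4 groups had 1 library and the sub-clusters were made from the same cells. Some sub-clusters of M1 Macro/DC cells also differed in count between TSF libraries a and b. C.29 had 7 cells in a and 0 in b, C.33 had 5 and 13, and C.58 had 4 and 10. These are named for their gap. All 21 cells of C.29 lay in fine cluster 46, and 28 of 31 of C.33 and 21 of 22 of C.58 in fine cluster 75. They thus mostly repeat the contrast of the fine clusters. C.57, with all its 23 cells in cluster 46, went the other way, with 5 cells in a and 11 in b.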

How the data were processed

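Single-cell libraries (10x Genomics, 5′ chemistry) of dissociated mouse lungs were mapped by the authors with Cell Ranger to the mouse build GRCm38.p6, to which the CD90.1 sequence had been added. Counts were read with Seurat 4.1.0, and ambient RNA was removed with a modified SoupX. The correction can lower UMI and gene counts per cell. The deposited cell table gives, per cell, the authors' corrected count of UMIs and count of genes, the percent of mitochondrial UMIs, class, type, fine cluster and sub-cluster. UMAP coordinates are the authors' deposited score without a unit. The lowest cell in the table had 800 UMIs, the lowest gene count was 202, and mitochondrial UMIs reached 9.99% at most. The authors clustered cells in the UMAP plane, named clusters by hand from markers and set doublet clusters aside with the help of scDblFinder scores, and no further doublet caller was run here. Of 7 libraries in the cell table, 2 are not among the samples described and were not used. Deposited tables of the authors' own comparison of cancer cells, which hold fold changes, p-values and enrichment scores, were not used.

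Groups came from the labels. Shares were computed over annotated cells with Clopper-Pearson intervals at the 95% level, ratios with exact conditional intervals (pooled counts for TSF libraries a and b), and medians with intervals from order statistics. Medians of genes at matched depth were taken over cells in ranges of UMIs, with library medians only from 5 cells. Types were counted past 1.5-fold if they had at least 10 cells. Alternatives were other totals, minimums of 1500 and 2000 UMIs, a maximum of 5% mitochondrial UMIs, and TSF library a or b left out. The doublet type counted in, the total without granulocytes and cancer cells, the count of types without granulocytes, all alternatives for the fine clusters, and all alternatives of the ratios between days except the total without granulocytes were chosen after the data were seen. No gene was named by its values: every type left by the rule and every marker on the lists is reported. The members and lists were chosen with earlier results of these data known. Scripts ran in Python 3.11.15 with scipy 1.17.1, pandas 2.3.3, matplotlib 3.10.9 and numpy 2.4.6.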

Additional observations from a re-analysis of the deposited data

Results flagged for a closer look

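For 3 measures of M1 Macro/DC cells, TSF libraries a and b of day 11 moved to one side of their CM library and the TSF library of day 16 to the other side of its own. None of these differences between days was tested, as 3 of the 4 groups had 1 library, and the interval of the ratio takes in 1 at both days for each. As a part of the Monocyte-Derived class, log2 of the ratio of TSF to CM was 0.06 (a) and 0.01 (b) at day 11 and -0.05 at day 16, a difference of -0.0890. As a share of all cells, doublets and unknown cells included, it was -0.05 and -0.21 at day 11 and 0.02 at day 16, a difference of 0.15. Without granulocytes it was -0.02 and -0.18 at day 11 and 0.41 at day 16, a difference of 0.51. For annotated cells the 3 log2 ratios were -0.03, -0.19 and near 0, on the same side.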

How the results depend on the processing

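Of 70 shares, ratios and medians under alternatives, 69 lay within the interval of the value reported. Most alternatives keep nearly all of the same M1 Macro/DC cells, so this was likely beforehand and is no separate support. Lying within the interval can also hide a shift. The ratio of days in TSF without granulocytes, 0.930, lay just under the upper limit of 0.933. The 4 counts of types past 1.5-fold stayed within 1.5 times the reported count with a minimum of 30 cells. The exception among the 70 was the ratio of day 16 to day 11 in TSF without granulocytes and cancer cells. It was 0.961 (0.701 to 1.30) against 0.692. The M1 Macro/DC cells were the same 345 in both, so only the total moved the ratio. Why that total differed between days was not tested. Over all alternatives the ratio of TSF to CM ran from 0.878 to 1.03 at day 11 (9 of 11 below 1) and from 0.807 to 1.37 at day 16 (4 of 9 below 1), and 0 intervals kept off 1. The ratio of days ran from 0.566 to 0.811 in CM (all 9 below 1, 7 intervals off 1) and from 0.545 to 0.961 in TSF (all 11 below 1, 7 off 1). At most 5% mitochondrial UMIs gave 0.713 in CM (0.471 to 1.07), an interval that takes in 1. Leaving out TSF library a or b gave 0.878 to 0.982 for the media at day 11 and 0.655 to 0.733 for the days in TSF, and without library a that interval took in 1 (0.514 to 1.04). No paired analysis was possible because replicate letters exist in 1 group only. Since 1 type was left, its values stand for the remaining types together. With 43 to 94 cells per library, the intervals of the ratio of media span 0.702 to 1.25 at day 11 and 0.663 to 1.52 at day 16, which limits the differences that could be seen.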
